A study of Mus musculus and synthetic construct with 3 samples.

Results

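The 10 genes described here are used to recognise macrophages in tissue: Lyz2, Cd68, Lgals3, Cd5l, Trem2, Csf1r, Tyrobp, Fcer1g, Mrc1 and Spp1. They were taken by symbol from the 32285 genes of a Seq-Scope count table of mouse abdominal aorta, and all 10 symbols matched a row. Seq-Scope captures polyadenylated RNA from a frozen section on a dense field of barcoded spots, so that each molecule, counted by its unique molecular identifier (UMI), has a position on the slide. The AAA group was 3 male Apoe -/- mice on normal chow that received angiotensin II (AngII) by minipump and formed an abdominal aortic aneurysm (AAA). The control group was 3 male Apoe -/- mice infused with saline. The labels give an age of 16 weeks, an AngII concentration of 1000 ng/ml and an infusion of 4 weeks; the study's methods give a younger age and state the dose per body weight and time. Each AAA mouse was embedded with a control mouse, and the suprarenal aorta was cut at 10 μm into 10 AAA and 10 control sections in all. Only infused mice that had formed an aneurysm were sectioned, so the drug and the aneurysm cannot be told apart, and the disruption of Apoe is shared by both groups. GEO's labels do not divide the pooled matrix into AAA and control. Sections were assigned to mice by fitting the section outlines shown in the study's supplement to the barcode positions, and the mouse was the replicate (n = 3 each).

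Macrophages are phagocytes that enter or reside in the vessel wall, take up lipid and cell debris, and degrade matrix. Their survival depends on CSF1 signalling through the receptor encoded by Csf1r, and several of their surface receptors, TREM2 among them, signal through small adaptor proteins such as those encoded by Tyrobp and Fcer1g. In the aneurysmal aorta they gather in the adventitia and around sites of medial damage. Lipid-laden macrophages express Gpnmb, which encodes a transmembrane glycoprotein, and the 10 genes were therefore also compared between places with and without Gpnmb RNA.

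Exonic UMIs, with mitochondrial and Gm-named gene models left out, numbered 458868 to 973839 per AAA mouse and 144356 to 196454 per control mouse. They lay at 49582 to 71965 per mm2 of section window in AAA and at 32059 to 37217 per mm2 in control. A window spanned the full width of the array along the length of a section, with a margin, so its area includes array without tissue. Values per mm2 therefore depend on how much of a window the tissue filled, as well as on its RNA. The gaps between sections, at least 200 μm from any outline, held 383276 UMIs at 13511 per mm2. RNA was thus also captured off the tissue, and the gap value is given beside the levels of the members. Apoe was counted at 500 to 540 UMIs per 100000 in AAA and 486 to 598 in control, although all mice were labelled Apoe -/-. Alb, a liver gene, was at 842 to 899 in AAA and 834 to 1084 in control, and both genes were at least as high in the gaps (654 for Apoe and 968 for Alb) as in every AAA mouse.

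The stretches before the start sites of 4 members are shown because Lyz2 and Cd5l were the members that passed both main tests, Lgals3 passed the AAA test, and Spp1 had the smallest AAA change of the 10. They are the 150 bases upstream of the RefSeq start in GRCm38.p6, 5′ to 3′ on the gene's strand. This start can differ from the outer end of the gene coordinates given further below. The Lgals3 stretch lies inside those coordinates and the Lyz2 stretch overlaps them, so another choice of start would give another stretch. Capitals mark GAGGAA and GGAAGT on either strand (TTCCTC and ACTTCC on the other), hexamers that share the GGAA core bound by ETS factors such as PU.1, a regulator of macrophage genes.
Lyz2, chr10:117282273-117282422, minus strand: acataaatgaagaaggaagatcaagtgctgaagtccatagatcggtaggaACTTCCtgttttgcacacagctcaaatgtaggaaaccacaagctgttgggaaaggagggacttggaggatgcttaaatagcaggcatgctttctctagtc
Cd5l, chr3:87357731-87357880, plus strand: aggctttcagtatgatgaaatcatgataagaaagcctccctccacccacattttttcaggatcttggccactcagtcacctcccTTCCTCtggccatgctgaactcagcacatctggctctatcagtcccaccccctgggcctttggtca
Lgals3, chr14:47373710-47373859, plus strand: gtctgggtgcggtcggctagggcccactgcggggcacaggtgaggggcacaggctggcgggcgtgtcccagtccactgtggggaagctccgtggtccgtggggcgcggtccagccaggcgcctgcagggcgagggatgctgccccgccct
Spp1, chr5:104434961-104435110, plus strand: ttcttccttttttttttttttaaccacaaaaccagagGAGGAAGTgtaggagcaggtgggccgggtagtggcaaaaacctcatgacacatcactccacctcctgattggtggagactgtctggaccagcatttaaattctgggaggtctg

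In Spp1 the 2 hexamers overlap and begin 113 and 111 bases before the start, in Lyz2 ACTTCC begins at -100, and in Cd5l TTCCTC begins at -66. Of the 8 members with a promoter entry, 5 held GAGGAA and 3 held GGAAGT within 250 bases upstream, against 23.3% and 19.7% of all 32851 promoters of that length. The Lgals3 and Fcer1g windows held neither. A match is a description of the sequence, and its relation to the differences between AAA and control was not tested.

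AAA sections carried more RNA of the macrophage identity genes than control sections. Summed over the 10 genes, AAA mice 1, 2 and 3 had 255.9, 322 and 294 UMIs per 100000, against 172, 186 and 166 in control mice 1, 2 and 3. The groups did not overlap. By section, the sum ranged over 233 to 355 UMIs per 100000 in AAA (median 293) and 138 to 207 in control (median 174), and every AAA section lay above every control section. The gaps had 267, inside the AAA range. Within the hexagons of at least 75 genes alone, the sum was 280, 332 and 300 UMIs per 100000 in AAA mice 1, 2 and 3. In control mice 1, 2 and 3 it was 156, 129 and 166 there, on only 54, 17 and 15 UMIs. Per unit of window, which depends on tissue coverage and total RNA as well as composition, the sum was 146 to 189 UMIs per mm2 in AAA. It was 58.1 to 64.1 in control and 36.1 in the gaps. In bulk counts of this kind, more cells of a type and more RNA per cell cannot be told apart.

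**Figure D1:**
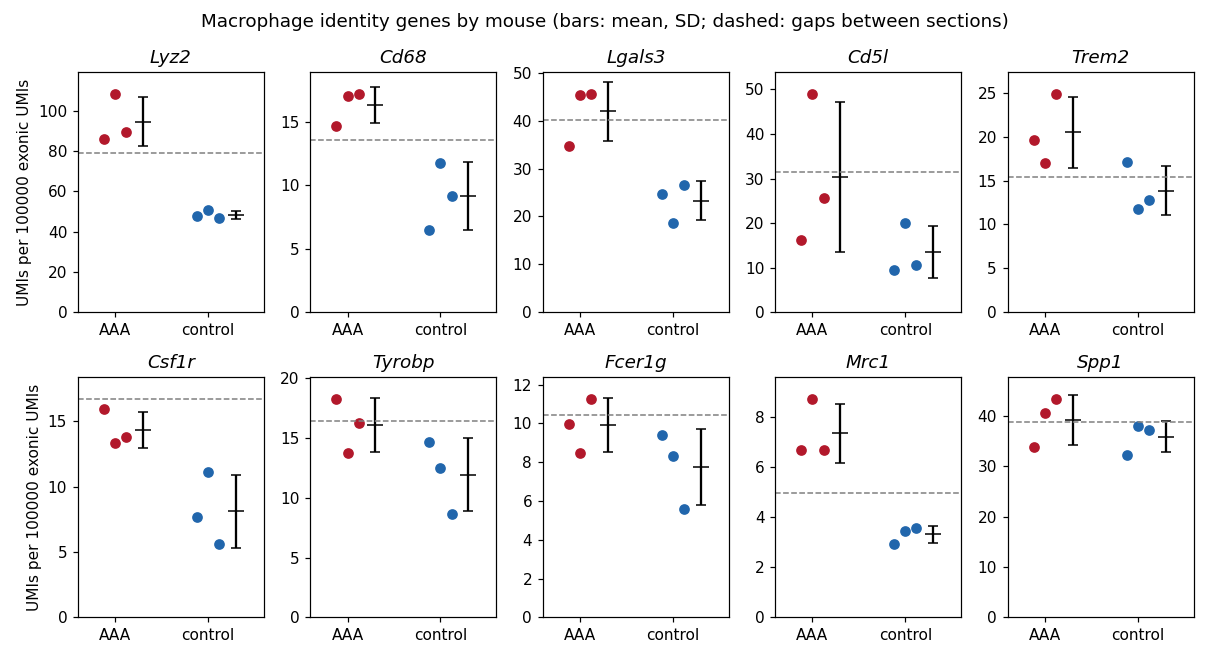
UMIs per 100000 exonic UMIs of each macrophage identity gene (y axis, from 0, scaled per gene) in 3 AAA mice (red, left) and 3 control mice (blue, right), with the mean and SD as black bars and the level in the gaps between sections as a dashed line. The groups do not overlap for Lyz2, Cd68, Lgals3, Csf1r and Mrc1 and overlap for the other 5. Over all genes tested, 8.59% had every AAA mouse above every control mouse. The gap line lies above every control mouse for 9 of the 10 genes, Trem2 excepted.

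Across the 6486 genes with enough UMIs to test, 84 were higher in AAA by edgeR's quasi-likelihood test at an adjusted p under 0.05 (1.30% of genes tested), and 78 were lower (2.50% in either direction). All 10 macrophage identity genes were among those tested. Of them, 5 rose (Lyz2, Lgals3, Cd5l, Cd68 and Csf1r) and none fell. The AAA mice lay above all control mice, in UMIs per 100000, for 557 of the genes tested (8.59%) and for 5 of the 10 members. The median log2 fold change of the 10 was 0.84, against 0.01 over all genes tested.

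Lyz2 (chr10:117277331-117282321, minus strand, GRCm38) encodes lysozyme of myeloid cells and was the most counted member, with 1938 UMIs in AAA and 246 in control. Its level was 85.9, 108.5 and 89.4 UMIs per 100000 in the AAA mice, against 47.6, 50.6 and 46.8 in the control mice. Every AAA mouse lay above every control mouse, and the control mice were close together. The log2 fold change was 0.98 ± 0.13 (SE, n = 3 mice each; adjusted p = 2.93e-06, edgeR). The gaps had 79.1. In hexagons with at least 75 genes the level was 100.6 ± 11.98 in AAA and 24.9 ± 11.4 in control (SD, n = 3 each), on only 17 control UMIs in all. Lyz1, a close paralog whose reads may be shared with Lyz2, had 30 UMIs over the AAA mice and 7 over the control mice.

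Lgals3 and Cd68 mark phagocytic cells. Lgals3 (chr14:47367751-47386160, plus strand) encodes galectin-3, a galactoside-binding lectin that fibroblasts and epithelia also make. It had 34.8, 45.3 and 45.6 UMIs per 100000 in AAA mice 1, 2 and 3, against 24.7, 18.7 and 26.5 in control mice 1, 2 and 3. The groups did not overlap, and the log2 fold change was 0.83 ± 0.16 (SE; adjusted p = 0.00118, edgeR). Cd68 (chr11:69664213-69666153, minus strand) encodes macrosialin, a lysosomal membrane protein. It had 14.7, 17.0 and 17.2 UMIs per 100000 in the AAA mice, against 6.47, 11.8 and 9.16 in the control mice. The groups again did not overlap (log2 fold change 0.85 ± 0.23 SE, adjusted p = 0.0279, edgeR). The gap values were 40.2 for Lgals3 and 13.6 for Cd68, both within or just below the AAA range.

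Cd5l (chr3:87357881-87371073, plus strand) encodes a secreted scavenger protein of tissue macrophages, also called AIM, which protects macrophages from apoptosis; liver Kupffer cells are a known source. It had 16.2, 49.0 and 25.6 UMIs per 100000 in the AAA mice, against 9.41, 20.1 and 10.7 in the control mice. The spread within AAA was wide, AAA mouse 1 lay below control mouse 2, and the gaps had 31.6 (4.27 UMIs per mm2, within the 3.50 to 6.44 of control). AAA mouse 2 and control mouse 2, which were embedded together, had the highest value of their groups. The log2 fold change was 1.15 ± 0.29 (SE; adjusted p = 0.0201, edgeR), and without AAA mouse 2 it was 0.67 with an adjusted p of 0.136. Clec4f, the defining Kupffer cell receptor, had 12 UMIs over the AAA mice and 3 over the control mice.

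Csf1r (chr18:61100598-61132149, plus strand), the receptor for CSF1 and IL34, had 15.9, 13.3 and 13.8 UMIs per 100000 in the AAA mice, against 7.65, 11.1 and 5.60 in the control mice. The groups did not overlap, the log2 fold change was 0.90 ± 0.24 (SE; adjusted p = 0.0295, edgeR), and the gaps were higher than any mouse at 16.7 (2.26 UMIs per mm2, within the 1.95 to 3.55 of control). Its ligand gene Csf1 had too few UMIs for more than a broad estimate (log2 fold change 0.41 ± 0.35, adjusted p = 0.742), and the other ligand gene did not pass the filter.

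The calls of Cd5l, Cd68 and Csf1r were the least stable. Each was lost when control mouse 1 or control mouse 3 was left out, leaving 2 of the 10 called (Lyz2 and Lgals3); the 3 lost genes then had log2 fold changes of 0.66 to 1.00. Each was also lost with DESeq2 in place of edgeR, with log2 fold changes of 1.18, 0.84 and 0.86 (adjusted p of 0.532, 0.131 and 0.167). Csf1r also passed no longer without AAA mouse 1, and Cd68 without AAA mouse 3, while in hexagons with 25 or more genes, chosen after seeing the data, the log2 fold change of Cd68 was 1.62 (adjusted p = 0.0035, edgeR). Lyz2 passed under all 15 alternatives, with log2 fold changes of 0.87 to 1.75 and adjusted p of 2.80e-12 to 0.00226.

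The remaining receptors and adaptors did not pass. Trem2 encodes a lipid-sensing receptor of macrophages and microglia. It had 19.6, 17.0 and 24.9 UMIs per 100000 in AAA, against 17.1, 11.8 and 12.7 in control, with AAA mouse 2 a little below control mouse 1 (log2 fold change 0.59 ± 0.20 SE, adjusted p = 0.147, edgeR). Tyrobp encodes DAP12, the adaptor through which TREM2 signals. It had 18.3, 13.7 and 16.3 UMIs per 100000 in AAA, against 14.7, 12.5 and 8.65 in control (0.49 ± 0.22, adjusted p = 0.346, edgeR). Fcer1g encodes the Fc receptor γ chain, which mast cells and natural killer cells also use. It had 9.96, 8.50 and 11.3 UMIs per 100000 in AAA, against 9.41, 8.31 and 5.60 in control (0.40 ± 0.26, adjusted p = 0.614, edgeR). The groups overlapped for all 3 genes, and the gaps had 15.4 for Trem2, 16.4 for Tyrobp and 10.4 for Fcer1g.

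Mrc1 encodes the mannose receptor CD206, a marker of resident and tissue-repair macrophages that some endothelia also express. It had 6.67, 8.72 and 6.67 UMIs per 100000 in the AAA mice, against 2.94, 3.46 and 3.56 in the control mice. The groups did not overlap, and the log2 fold change of 1.12 ± 0.34 (SE) rested on 17 control UMIs, with an adjusted p of 0.0741 (edgeR). With UMIs over whole genes it was 0.38 ± 0.18 (adjusted p = 0.538). The gaps had 4.96, between the groups.

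Spp1 (chr5:104435118-104441050, plus strand), which encodes osteopontin, a secreted phosphoprotein of macrophages, smooth muscle cells and bone, had the smallest difference between AAA and control. It had 33.8, 40.5 and 43.4 UMIs per 100000 in the AAA mice, against 32.4, 38.1 and 37.2 in the control mice, with 38.9 in the gaps. The groups overlapped and the log2 fold change was 0.14 ± 0.14 (SE; adjusted p = 0.815, edgeR). In hexagons with at least 75 genes the order of the means was the other way, 36.1 ± 4.6 in AAA and 41.4 ± 16.7 in control (SD, n = 3 each). Per mm2 of window its UMIs were more in AAA, at 21.5 to 24.3 in AAA against 12.04 to 12.96 in control, as was the total over all genes. None of the 6 osteopontin receptor genes tested (integrin subunits and Cd44) passed in either direction.

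**Figure D2:**
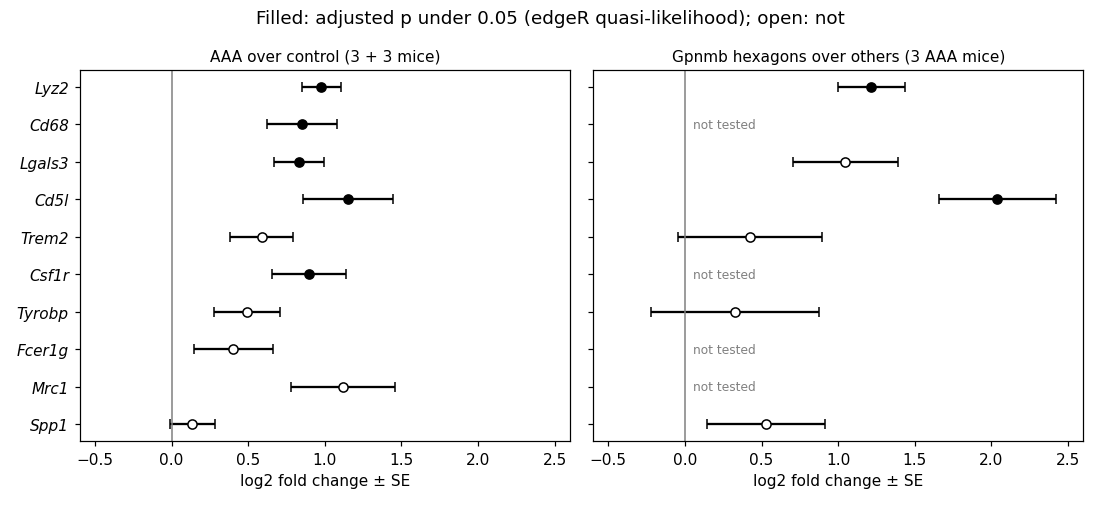
Log2 fold change with its SE (x axis) of each macrophage identity gene in AAA over control, 3 mice each (left), and in Gpnmb hexagons over other hexagons of the 3 AAA mice (right), with filled points where the adjusted p was under 0.05. Lyz2 and Cd5l are filled in both panels, and Spp1 lies at 0.14 on the left.

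The values were also taken section by section. For Lyz2, the 10 AAA sections ranged over 76.0 to 121.5 UMIs per 100000 (median 94.0) and the 10 control sections over 35.8 to 54.5 (median 48.8). Lgals3 was also separated by section, at 30.5 to 52.9 in AAA and 15.04 to 29.4 in control. Cd5l ranged over 14.2 to 55.0 in AAA and 3.11 to 25.7 in control, and only 5 of the AAA sections lay above all control sections. Spp1 ranged over 29.6 to 47.6 in AAA and 30.1 to 49.6 in control, and none of its AAA sections lay above all control sections.

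**Figure D3:**
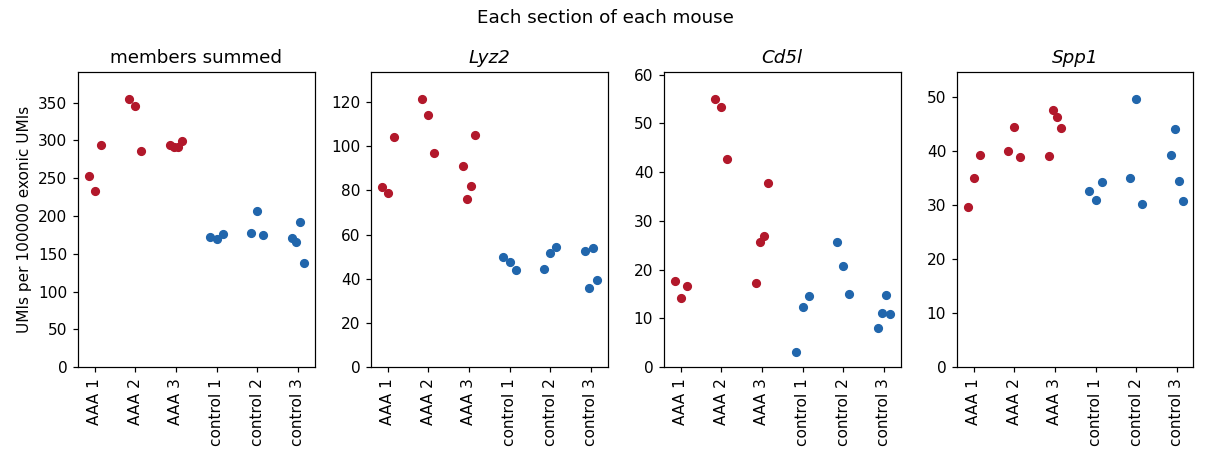
UMIs per 100000 exonic UMIs (y axis, from 0) in each section, grouped by AAA mice 1 to 3 (red) and control mice 1 to 3 (blue), for the 10 genes summed and for Lyz2, Cd5l and Spp1. Every AAA section is above every control section for the sum and for Lyz2, whereas the Cd5l values of AAA mouse 1 lie among the control values.

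Over the 10 AAA sections, the log2 level of Gpnmb followed that of the summed members with Pearson's r = 0.75, and that of Ctsb, a lysosomal protease gene, with r = 0.67. Among 1921 other genes with at least 200 UMIs, they ranked 11 and 50 by this measure. The sections come from 3 mice and share their libraries, so these values describe them and no p was computed.

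Other macrophage genes gave the setting. Of 25 further macrophage genes, 22 were tested, 6 rose in AAA and none fell, with a median log2 fold change of 0.63; the list summed to 316 to 375 UMIs per 100000 in AAA, 192 to 214 in control and 289 in the gaps. Those that rose were the complement genes C1qa, C1qb and C1qc, the lysosomal protease gene Ctss, Laptm5 and Cybb (NADPH oxidase), with log2 fold changes of 0.63 to 1.25. Of 20 lipid-associated macrophage genes tested, 7 rose: Gpnmb (1.11 ± 0.17 SE), Abcg1, Ctsd, Ctsb, Ctsz, Psap and Lamp1. Of 8 resident macrophage genes tested, Maf rose (1.01 ± 0.24) and Cbr2 fell (-0.67 ± 0.18). None of the 5 tested genes of ITAM signalling passed, and none of the 3 tested inflammatory genes did (Ccl2, Ccl6 and Ccl9).

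Genes of other cell types moved with the groups as well. Of 8 smooth muscle genes, 7 fell in AAA, with summed levels of 1019 to 1223 UMIs per 100000 in AAA, 1460 to 1943 in control and 1386 in the gaps. Of 8 fibroblast genes, 5 rose, with summed levels of 1166 to 1546 in AAA, 945 to 1031 in control and 1232 in the gaps. Of 4 red blood cell genes tested, 3 fell. Of the 8 genes listed for dendritic cells only Itgax could be tested, and it rose (log2 fold change 1.76 ± 0.46 SE, adjusted p = 0.0221, edgeR). That list summed to 10.5 to 12.7 UMIs per 100000 in AAA, 5.60 to 7.06 in control and 7.31 in the gaps, and 1 gene does not identify the cell type. Of 12 hepatocyte genes only Hp, which encodes haptoglobin, rose (0.56 ± 0.14, adjusted p = 0.0121, edgeR). The study lists Hp among the markers of its adipose cluster, so Hp is not particular to liver here. Among 4 lymphatic endothelial genes only Ccl21a rose (0.90 ± 0.23, adjusted p = 0.0201, edgeR). Neutrophil genes summed to 13.1 to 15.1 UMIs per 100000 in AAA, 7.13 to 12.5 in control and 14.9 in the gaps. T and NK cell genes summed to 7.85 to 12.4 in AAA, 7.06 to 12.5 in control and 6.26 in the gaps. At most 1 gene of each list could be tested, and none passed. The part of these shifts in the levels of the 10 macrophage genes, which are shares of all RNA, was not tested.

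Within the AAA sections, the members were set against Gpnmb. The plane was divided into hexagons with sides of 12 μm, each a small patch that can hold parts of several cells, and 4436 hexagons of the AAA mice had at least 75 genes. Of these, 334 held Gpnmb UMIs: 161 of 2652 in AAA mouse 1, 85 of 908 in AAA mouse 2 and 88 of 876 in AAA mouse 3. In the control mice 12 of 498 did, too few to compare. With Gpnmb left out of the table, 953 genes could be tested, of which 9 were higher in Gpnmb hexagons (0.944% of genes tested) and 1, App, was lower (0.105%; 1.05% in either direction). Of the 10 members 6 were tested, and Lyz2 and Cd5l rose. The other genes that rose were Ctsl, Ctsd, Ctsb, Psap, Fabp5, Ftl1 and Ctss, which encode lysosomal proteins, a fatty acid binding protein and a ferritin chain. The study's markers of its Gpnmb-high macrophage cluster, drawn from the same data, include Lyz2, Cd5l and these genes except Fabp5. The overlap is therefore not independent evidence.

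Lyz2 had 165, 352 and 169 UMIs per 100000 in Gpnmb hexagons of AAA mice 1, 2 and 3, against 98.2, 85.8 and 77.7 in the other hexagons of the same mice. It was higher in all 3 mice, and AAA mouse 2 stood above the others. The log2 fold change was 1.22 ± 0.22 (SE, 3 mice, mouse as block, adjusted p = 1.07e-05, edgeR). With DESeq2 it was 1.28 ± 0.32 (SE, adjusted p = 0.0155). At least 1 Lyz2 UMI was found in 17.4%, 24.7% and 13.6% of Gpnmb hexagons, against 10.6%, 9.36% and 7.36% of the others. Depth was close in both classes, with medians of 109 to 114 UMIs in Gpnmb hexagons and 99 to 108 in the others. Alb, the liver gene, was at 786 ± 52 UMIs per 100000 in Gpnmb hexagons and 830 ± 60 in the others (SD, n = 3 mice).

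Cd5l had 18.3, 167 and 132 UMIs per 100000 in Gpnmb hexagons, against 13.4, 28.9 and 18.8 in the others. AAA mice 2 and 3 carried the difference, at 5.77 and 6.99 times the other hexagons, and AAA mouse 1 was at 1.37 times. The log2 fold change was 2.04 ± 0.38 (SE, adjusted p = 2.32e-05, edgeR) on 36 UMIs in Gpnmb hexagons and 87 in the others. With DESeq2 it was 2.03 ± 0.49 (SE, adjusted p = 0.0114). In AAA mouse 2, 18 UMIs came from 9 of the 85 Gpnmb hexagons, and in AAA mouse 3, 14 came from 12 of the 88. Without AAA mouse 2 neither gene passed (log2 fold change 0.80 and adjusted p = 0.0927 for Lyz2, 1.71 and 0.0658 for Cd5l), and without AAA mouse 3 Cd5l did not (1.67, adjusted p = 0.0717).

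Lgals3 differed between the mice, with 50.3, 158 and 28.2 UMIs per 100000 in Gpnmb hexagons of AAA mice 1, 2 and 3, against 32.2, 27.9 and 42.4 in the others. The Gpnmb hexagons of these mice held 11, 17 and 3 Lgals3 UMIs, so the lower value in AAA mouse 3 rests on 3 UMIs. Lgals3 did not pass (log2 fold change 1.05 ± 0.34 SE, adjusted p = 0.150, edgeR). Without AAA mouse 2 its log2 fold change was 0.22. Spp1 had 50.3, 55.6 and 47.1 UMIs per 100000 in Gpnmb hexagons, against 32.2, 39.9 and 31.8 in the others, and was thus 1.39 to 1.56 times higher in each mouse. It rested on 22 UMIs in the Gpnmb hexagons and did not pass (0.53 ± 0.39, adjusted p = 0.834, edgeR). Trem2 (0.42 ± 0.47) and Tyrobp (0.33 ± 0.55) were also above the other hexagons in all 3 mice without passing, with adjusted p of 0.932 and 0.960 (edgeR). This order rests on few Gpnmb hexagon UMIs in AAA mice 1, 2 and 3: 8, 3 and 4 for Trem2, and 7, 2 and 2 for Tyrobp. Cd68, Csf1r, Fcer1g and Mrc1 had 7, 7, 7 and 2 UMIs in the Gpnmb hexagons and were not tested. Over whole genes, where all 4 could be tested, none passed, with log2 fold changes of 0.57 ± 0.48 for Cd68, 0.13 ± 0.48 for Csf1r, 0.67 ± 0.61 for Fcer1g and -0.47 ± 0.45 for Mrc1 (SE).

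**Figure D4:**
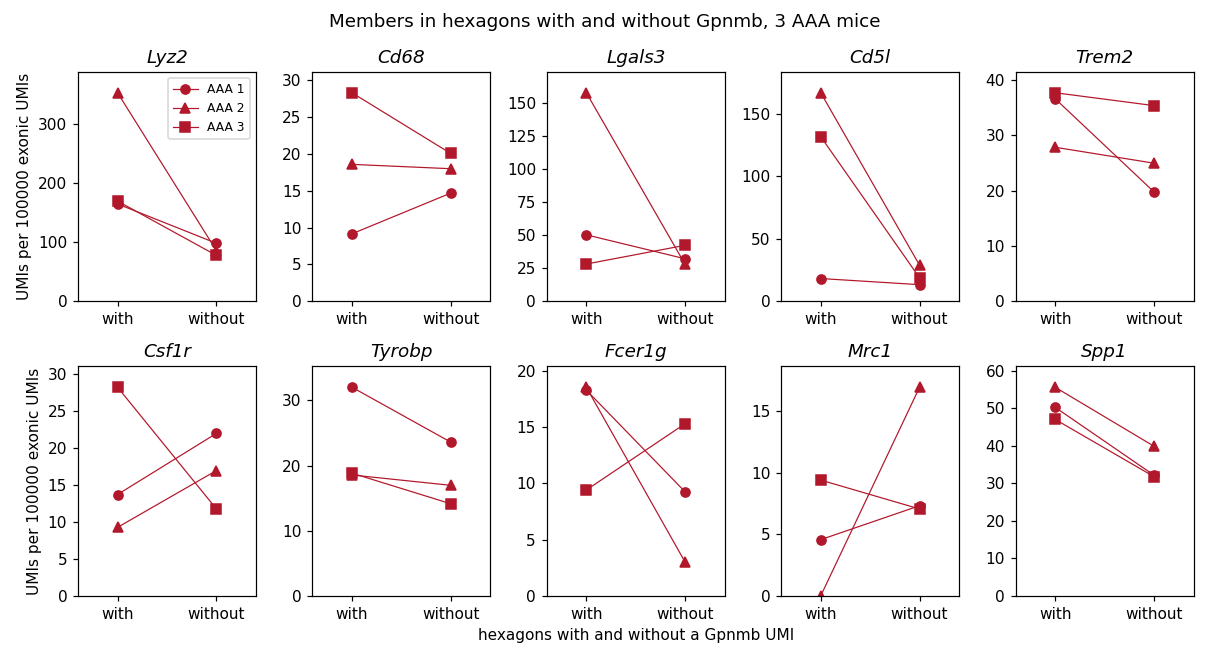
UMIs per 100000 exonic UMIs (y axis, from 0, scaled per gene) of each macrophage identity gene in hexagons with and without a Gpnmb UMI, with a line for each of the 3 AAA mice. The lines of Lyz2, Cd5l, Trem2, Tyrobp and Spp1 are higher on the left in all 3 mice, and those of Cd68, Lgals3, Csf1r, Fcer1g and Mrc1 run both ways.

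The pattern by distance used the same hexagons. With the 3 AAA mice pooled, Lyz2 was at 213 UMIs per 100000 in Gpnmb hexagons, 113 in hexagons centred up to 25 μm away, 83.9 at 25 to 45 μm, 78.0 at 45 to 90 μm and 95.6 beyond 90 μm. The higher last value came from AAA mouse 1 (112 beyond 90 μm and 81.6 at 45 to 90 μm), whereas AAA mice 2 and 3 had 60.2 and 71.5 beyond 90 μm and 69.3 and 75.03 at 45 to 90 μm. Cd5l was at 83.2, 28.6, 20.97, 10.7 and 14.0 over the same distances when pooled, and at 18.3, 19.7, 10.1, 9.46 and 14.7 in AAA mouse 1. Spp1 was at 50.8, 32.6, 29.4, 39.0 and 32.7, with no order beyond the Gpnmb hexagons. Without hexagons, 9.49%, 18.2% and 10.4% of the Cd5l UMIs of AAA mice 1, 2 and 3 lay within 10 μm of a Gpnmb UMI, which was 2.98, 4.33 and 3.04 times the share of all UMIs there. For Lyz2 the ratios were 1.54, 3.77 and 2.18, for Spp1 1.43, 1.92 and 1.20, and for Mrc1, on 5 UMIs in all, 0.97, 1.19 and 0.65.

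**Figure D5:**
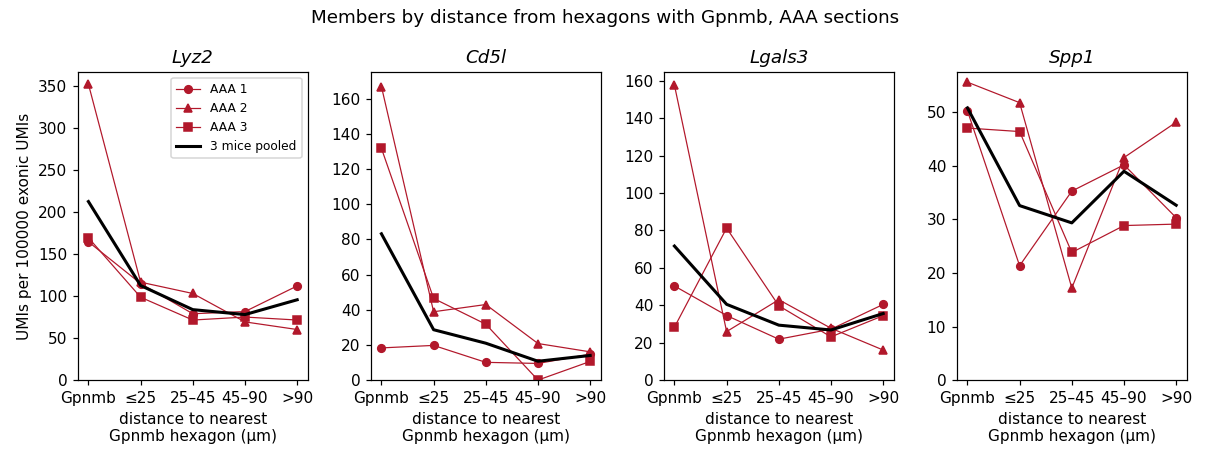
UMIs per 100000 exonic UMIs (y axis, from 0, scaled per gene) of Lyz2, Cd5l, Lgals3 and Spp1 in hexagons of the AAA sections by distance in μm from the nearest Gpnmb hexagon (x axis), for each AAA mouse (red) and pooled (black). Pooled Lyz2 is at 213 in Gpnmb hexagons and at 78.0 to 113 elsewhere, and Cd5l is low throughout in AAA mouse 1.

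Among hexagons without Gpnmb, those centred within 45 μm of a Gpnmb hexagon were tested against those farther away. No gene of 951 passed in either direction (0% called; 24 higher and 20 lower at an unadjusted p under 0.05 by edgeR, and by DESeq2 0 called, with 2 higher and 0 lower at an unadjusted p under 0.05), and so none of the 7 members tested did. Cd5l had 14.95, 40.9 and 40.2 UMIs per 100000 near Gpnmb hexagons in AAA mice 1, 2 and 3, against 12.4, 18.6 and 7.26 away from them. It was higher near them in all 3 mice (log2 fold change 0.93 ± 0.36 SE, adjusted p = 0.900, edgeR). When hexagons with 25 or more genes were admitted, which left 4398 genes to test, Cd5l passed (0.97 ± 0.18, adjusted p = 6.88e-05, edgeR). Lyz2 had 97.2, 109.8 and 87.2 UMIs per 100000 near, against 98.8, 65.1 and 72.6 away (0.20 ± 0.16, adjusted p = 0.975, edgeR). The other 5 members tested had log2 fold changes of -0.23 to 0.19.

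Members also met each other in the same hexagons. Lyz2 and Cd5l were found together in 26 AAA hexagons, against 10.5 from the product of their shares within each mouse. Lyz2 and Trem2 shared 24 against 12.4, and Lgals3 and Trem2 15 against 4.76. Lyz2 and Spp1 shared 16 against 18.4, Lgals3 and Spp1 4 against 6.93, and Lyz2 and Mrc1 1 against 4.17. Of all 45 pairs of members, 31 were above the product, 14 of them in all 3 mice, and 14 were below it. These are counts without a test, and hexagons with more UMIs hold more of every gene. The same count was not taken over pairs of other genes, so the 31 cannot be read as particular to the members. Some pairs rest on single hexagons, such as Cd5l and Mrc1 with 1 against 0.998.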

How the data were processed

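The authors sequenced 2 aorta libraries on 1 array and deposited 1 matrix, which holds both, with UMI counts per gene and barcode (aligned to mm10 with STAR and STARsolo 2.7.5c, per the labels; Seurat 4 is also named). Counts over exons were used as deposited. The aneurysm and control sections were not separated in the labels. Section windows were placed on lane 2 by fitting 38 outline edges from the study's supplementary pictures to the edges of dense hexagons (residual SD 54.3 μm, against 2488 μm for the mirrored order), with a margin of 100 μm. The total in the windows was 2964937 exonic UMIs before 8551 mt- and Gm-named genes were removed. Hexagons with 12 μm sides were kept with at least 75 genes, 4436 in AAA and 498 in control. Far fewer passed than the study's text states, and the reason was not found. They held 34.5%, 24.2% and 14.2% of the UMIs of AAA mice 1, 2 and 3. For control mice 1, 2 and 3 the shares were 20.4%, 9.10% and 4.61%. The hexagon results thus cover a minor and uneven part of the captured RNA. No doublet caller was run.

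Counts were summed per mouse, or per mouse and hexagon class, and tested in R 4.3.3 by the quasi-likelihood method of edgeR 4.0.16 after TMM scaling, on all genes that filterByExpr passed, with p-values adjusted by Benjamini-Hochberg. Mouse was a block in the comparisons within AAA. All 10 members passed the filter between AAA and control, so no single-gene permutation test was needed there; an exact two-sided permutation over 3 and 3 mice cannot go below p = 0.1. Alternatives included DESeq2 1.42.0, other filters, windows and grids, and leaving out each mouse. Each SE given with edgeR was computed from the fold change and the F statistic of its test. It is thus not a direct measure of the spread between the mice. The procedure was tested on simulated data. Values per 100000 are shares of exonic UMIs, and mice were numbered by embedding pair. Named genes were all 10 members, and from each other list the genes past the threshold and the 3 with most UMIs, with Gpnmb, Ctsb and Apoe as points of comparison. Single genes of other kinds (Alb, Lyz1, Clec4f, Acta2) and the hexagon pairs were named after their values were seen. The genes with levels most like those of the members over the AAA sections were also computed and are not reported here. The members and gene lists were chosen with earlier results of these data known.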

Additional observations from a re-analysis of the deposited data

Results flagged for a closer look

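The gaps between sections, which belong to no comparison, held UMIs of the macrophage identity genes at shares above every control mouse for 9 of the 10 genes. The gap levels per 100000 UMIs were 79.1 for Lyz2, 13.6 for Cd68, 40.2 for Lgals3, 31.6 for Cd5l, 16.7 for Csf1r, 16.4 for Tyrobp, 10.4 for Fcer1g, 4.96 for Mrc1 and 38.9 for Spp1. Trem2, at 15.4, lay within the control range of 11.8 to 17.1. Per mm2 the gaps were lower than every control mouse for 8 of the 10 genes, for example 10.7 UMIs of Lyz2 against 16.2 to 17.7 in control, and within the control range for Cd5l (4.27) and Csf1r (2.26). Gaps lie beside AAA and control sections alike, and the part of this RNA in the differences between the groups was not tested. Section values were also screened for single sections far from the others of their group, in 24 sets of 10 sections, and none stood out.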

How the results depend on the processing

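Between AAA and control, the counts of genes higher and lower, and of members higher, were 28, 50 and 2 with DESeq2 and 24, 44 and 1 (of 4 tested) with barcodes in hexagons of 75 or more genes. With hexagons of 25 or more genes, chosen after seeing the data, 3 members were higher. Over whole genes 40 genes were lower. Leaving out a mouse gave 35 to 79 genes higher, 34 to 87 lower and 2 to 5 members higher. Of the called members, Lyz2 passed in every setting and Lgals3 failed in the 2 sets limited to hexagons (adjusted p of 0.331 and 0.0687); Csf1r also failed over whole genes (0.0670), in windows without margin (0.0871) and in hexagons of 25 or more genes (0.0900). The 5 uncalled members passed in none. With the pair number as a replicate block, 111 genes were higher and 87 lower and the same number of members, 5, was called. The main fit did not use the pair number. Paired mice deviated from their group means with correlations of 0.01 to 0.05 over the genes tested. Such correlations over many genes of few UMIs cannot exclude an effect of the shared embedding.

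Between Gpnmb hexagons and others, without a filter on low counts 0 genes were higher, 95 were lower and 0 members passed. Here the median of all genes moved to -1.27, so single values of that fit are relative to it. DESeq2, whole genes, no replicate block, 25 or more genes and a shifted grid each gave 0 genes lower; the shifted grid called 1 member (Cd5l), since Lyz2 had a log2 fold change of 0.98 and an adjusted p of 0.138. Leaving out a mouse gave 4 to 7 genes higher, 0 to 2 lower and 0 to 2 members; Lgals3 passed without AAA mouse 3 (1.399, adjusted p = 0.0448). Near against away, 25 or more genes gave 4 higher, 4 lower and 1 member, whole genes gave 1 lower, and leaving out a mouse gave 0 to 2 lower. No called member changed sign.

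Depth limits the hexagon results: the control mice held 289, 121 and 88 usable hexagons, and 4 members had 7 or fewer UMIs in Gpnmb hexagons.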
